A study of Mus musculus with 6 samples.

Results

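The MYC family and the partners of MAX were followed through the deletion of Gpr161 in mouse epidermis. The 10 genes are the MYC paralogs Myc, Mycn and Mycl, the shared partner Max, and the antagonists Mxd1, Mxd3, Mxd4, Mxi1, Mnt and Mga. They were taken by gene symbol from a table of 19618 genes, each symbol matched 1 row, and all 10 were among the 15422 genes that passed a filter on low counts.

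RNA was sequenced from keratinocytes of tail skin, taken from mice at 4 months, with 3 libraries per genotype. Knockout mice had 2 floxed copies of Gpr161 and the K14cre transgene, in which a keratin 14 promoter drives Cre recombinase in epidermal keratinocytes. The genotype labels of the control mice name no K14cre, and give 1 as homozygous and 2 as heterozygous for the floxed allele. By these labels Cre itself was not matched between the groups. The protein of Gpr161 sits in primary cilia and is known to restrain Hedgehog signalling, and the comparison asks how expression differs when it is deleted in the epidermis.

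MYC proteins are transcription factors of the basic helix-loop-helix leucine zipper class that bind DNA as dimers with MAX, mostly at the E-box, and raise the expression of genes for ribosome production and growth. MXD1, MXD3, MXD4, MXI1 and MNT compete for MAX and for the same sites and recruit the SIN3 and histone deacetylase corepressors, and MGA joins MAX to a Polycomb-type repressor complex. In skin, Myc is known for its part in driving epidermal stem cells into division and differentiation, the MXD proteins for their rise as cells leave the cycle, and Mycn as a gene that Hedgehog signalling raises in several tissues. The question put to these genes was whether a higher level of Mycn went with an opposite difference in Myc or in the same direction in the antagonists.

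RefSeq promoter windows on GRCm38.p6, each running from 250 bases before to 50 bases after an annotated start, matched 9 of the 10 genes with 11 windows. The gene without a window was Myc, so no promoter of Myc was searched, although its levels did not overlap between the groups. Sequence is shown for Mycn and Mxd4, whose levels did not overlap either. It is also shown for the start site of Max, the partner of all the others, where a motif spans the start. Each stretch of Mycn and Mxd4 opens with the first base of its window and ends where the GENCODE M21 exons of the gene begin. That end lies before the RefSeq start, from which motif positions are counted, so they are not distances from the end of the stretch. Capitals mark TTTGGCGC, a form of the site of E2F cell cycle factors, in Mycn, and the E-box CACGTG in Mxd4 and Max.
Mycn, chr12:12941915-12942086, minus strand: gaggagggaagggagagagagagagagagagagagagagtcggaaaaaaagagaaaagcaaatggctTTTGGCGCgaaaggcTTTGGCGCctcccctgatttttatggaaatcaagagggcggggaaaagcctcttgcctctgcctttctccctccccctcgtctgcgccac
Mxd4, chr5:34187721-34187960, minus strand: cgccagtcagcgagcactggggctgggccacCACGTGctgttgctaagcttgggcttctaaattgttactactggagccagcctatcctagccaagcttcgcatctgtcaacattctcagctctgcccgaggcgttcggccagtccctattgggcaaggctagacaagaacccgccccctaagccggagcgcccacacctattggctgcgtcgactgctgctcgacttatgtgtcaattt
Max, chr12:76962234-76962263, minus strand: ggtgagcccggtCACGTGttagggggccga

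The motifs were searched on both strands, and none of the matches overlapped another. CACGTG, which reads the same on both strands, was present in the windows of Max, Mxd4 and Mnt, 3 of the 11 windows, and in 7.15% of all 32851 RefSeq windows of this length. It began at base −3 from the start in Max, at −219 in Mxd4 and at −123 in Mnt. TTTGGCGC, searched after the sequences had been seen, occurred in Mycn at −183 and −168 and in 0.514% of all windows. The GLI site GACCACCCA was in none of the 11 windows and in 0.253% of all windows. These are matches of letters and no measure of binding.

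Levels are given as CPM, the estimated counts of a gene scaled to a common library total, after TMM scaling (trimmed mean of M values). Library totals ran from 17157864 to 25344399 estimated counts, so even 3 counts stood at 0.173 CPM at most. The table's columns give the genotype group without naming the sample, and libraries are named by the tag in the column. Values of single libraries are always given in the order DE679, DE685, DE688 for the knockout and DE680, DE684, DE689 for the control. DE685 and DE684 held Y-linked transcripts and the other 4 libraries held Xist. The targeted gene Gpr161 had 28.8 ± 4.23 CPM in the knockout and 31.4 ± 1.10 in the control (SD, n = 3 each), with overlap, so that its count per gene does not check the labels. Gli1, the direct readout of Hedgehog signalling, had 69.4 ± 4.42 and 9.15 ± 0.857 CPM. The tissue label held: the keratinocyte markers Krt5, Krt14, Krt1, Krt10 and Trp63 summed to 36439 to 54215 CPM in every library.

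None of the 10 genes reached an adjusted p under 0.05, the threshold used here for a difference, in the edgeR quasi-likelihood test with Benjamini-Hochberg adjustment over all 15422 genes, a threshold that 1.6% of all genes passed. An unadjusted p under 0.05 was found for Mycn, Myc and Mxd4, 3 of the 10, and for 19% of all genes. The same 3 genes were the ones whose groups did not overlap, and 25.6% of all genes had no overlap. Other tools run on the same libraries gave 2 genes past the threshold with DESeq2, Mycn and Mxd4, and 0 with limma-voom. Over all genes, DESeq2 called 879 of 14517 and limma-voom 244 of 15422. Of the 10 genes, 7 were higher and 3 lower in the knockout; their median log2 fold change was 0.084, and that of all genes tested was −0.0036.

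**Figure D1:**
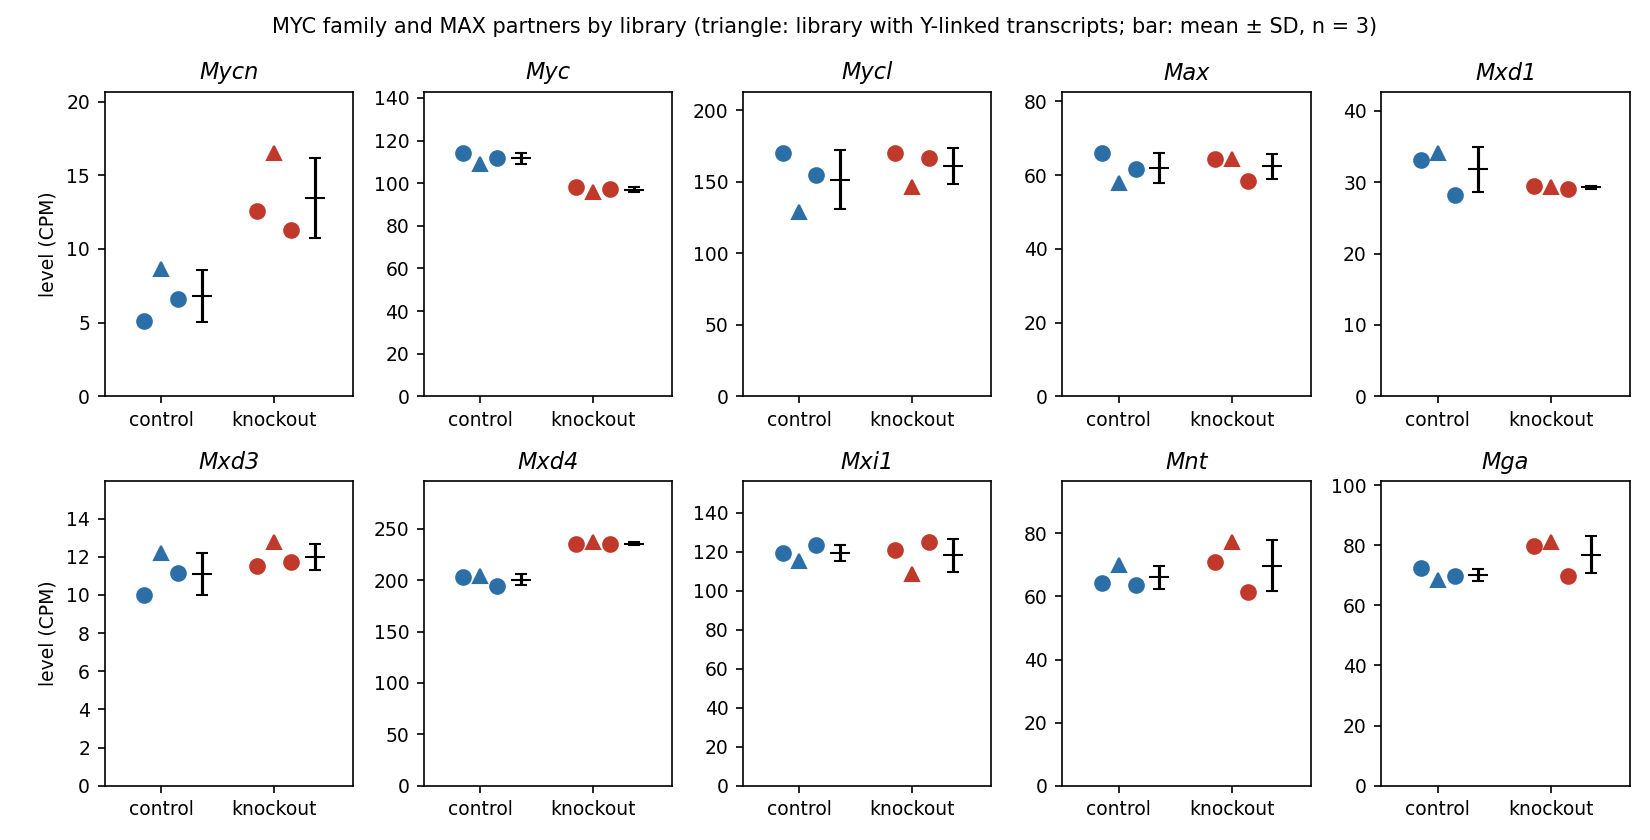
Level in CPM (vertical axes, from 0) of each of the 10 genes in the 3 control and 3 knockout libraries, with the mean ± SD beside them; triangles are the libraries with Y-linked transcripts. Mycn and Mxd4 were higher and Myc was lower in every knockout library than in every control library, and the groups of the other 7 genes overlapped.

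Mycn encodes N-MYC, the paralog best known from the embryo and from neural tumours (chromosome 12, 12936093 to 12941914, minus strand). The knockout libraries had 12.6, 16.5 and 11.3 CPM and the control libraries 5.15, 8.64 and 6.58 CPM. Every knockout library lay above every control library, and in each group the library with Y-linked transcripts was the highest. The means were 13.5 ± 2.72 and 6.79 ± 1.76 CPM (SD, n = 3 each), a ratio of 1.98. On the log2 scale the change was 0.98 (SE 0.22, 95% interval 0.47 to 1.49; adjusted p 0.0822, edgeR), larger in size than that of 96.9% of all genes tested. Between the 4 libraries with Xist it was 1.03 and between the pair with Y-linked transcripts 0.93, as differences of mean log2 CPM. With a term for sex, read from these transcripts, the edgeR adjusted p was 0.0149, and with DESeq2 it was 0.00118; over all 14 alternatives it ran from 0.00118 to 0.206.

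Myc encodes c-MYC, the paralog of dividing epidermal cells (chromosome 15, 61985391 to 61990374, plus strand). Its levels were 98.0, 95.9 and 97.0 CPM in the knockout and 114, 109 and 112 CPM in the control. The groups did not overlap, and the spread within each was small, with means of 97.0 ± 1.06 and 112 ± 2.50 CPM (SD, n = 3 each). This was a log2 fold change of −0.20 (95% interval −0.32 to −0.09, SE 0.05; adjusted p 0.0997, edgeR), or −13.2%. Its adjusted p stayed above the threshold in all 14 alternatives, from 0.0592 with DESeq2 to 0.280.

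Mycl encodes L-MYC, a paralog described in dendritic cells as well as in epithelia (chromosome 4, 122995652 to 123002485, plus strand). Mycl stood at 169.9, 146 and 167 CPM in the knockout and at 170.2, 129 and 155 CPM in the control. The groups overlapped, and within each group the library with Y-linked transcripts was the lowest. The fitted difference was 0.09 on the log2 scale (95% interval −0.16 to 0.34, SE 0.11; adjusted p 0.690, edgeR). Without DE684 it was −0.015. The summed level of 6 markers of Langerhans and dendritic cells (Cd207, Cd74, H2-Aa, Itgax, Flt3, Mfge8) was 78.6 to 151 CPM in the knockout and 56.1 to 131 CPM in the control, also lowest in DE685 and DE684; of these markers, Flt3 had no counts in DE684. The part of these cells in the Mycl level was not tested.

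Max, the obligate partner of both sides of the network (chromosome 12, 76937269 to 76962201, minus strand), did not differ beyond the spread between libraries. Its libraries held 64.3, 64.3 and 58.3 CPM in the knockout and 66.0, 58.0 and 61.7 CPM in the control. The libraries of both groups were intermixed. The fold change was 0.0098 on the log2 scale (95% interval −0.16 to 0.18, SE 0.07; adjusted p 0.958, edgeR), and it turned negative without DE679, DE685 or DE684.

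Among the antagonists, Mxd4 was the one without overlap between the groups (chromosome 5, 34173883 to 34187720, minus strand). MXD4, also called MAD4, is a MAX partner associated with cells that have left the cycle. Knockout libraries held 235, 237 and 235 CPM of Mxd4, and control libraries 204, 204 and 194 CPM. Every knockout library lay above every control library, and the knockout libraries lay close together. The means were 236 ± 1.22 and 200.5 ± 5.55 CPM (SD, n = 3 each), a difference of 17.6%. As a log2 fold change this was 0.23 (95% interval 0.11 to 0.35, SE 0.05; adjusted p 0.0787, edgeR). With DESeq2 the adjusted p was 0.00572, and over the 14 alternatives it ran from 0.00572 to 0.239. The gene Gm42846 on the opposite strand covers 6.06% of the exon bases of Mxd4, and use of strand in counting is not stated.

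The other antagonists overlapped between the groups. Mnt, the widely expressed antagonist that is present in resting and dividing cells alike (chromosome 11, 74830920 to 74845725, plus strand), had 61.3 to 77.2 CPM in the knockout and 63.7 to 70.1 CPM in the control. Its log2 fold change was 0.08 (95% interval −0.13 to 0.29). Mga, the large MAX partner of the Polycomb-type complex (chromosome 2, 119897228 to 119969581, plus strand), had 69.8 to 81.0 CPM against 68.3 to 72.4 CPM, with a log2 fold change of 0.13 (95% interval −0.04 to 0.30). Mxi1, which encodes an MXD protein that uses the same SIN3 corepressor (chromosome 19, 53310518 to 53375810, plus strand) had 109 to 125 CPM against 115 to 124 CPM. Its log2 fold change of −0.016 (95% interval −0.17 to 0.14) turned to 0.0031 with upper-quartile scaling.

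The remaining MXD genes were the least expressed antagonists in CPM. Mxd1, known as a gene of terminally differentiating keratinocytes (chromosome 6, 86647042 to 86669161, minus strand), had 29.1 to 29.4 CPM in the knockout and 28.2 to 34.1 CPM in the control, with a log2 fold change of −0.12 (95% interval −0.32 to 0.08). Mxd3, the member linked to S phase (chromosome 13, 55325168 to 55329823, minus strand), had 11.5 to 12.8 CPM against 9.98 to 12.2 CPM, with a log2 fold change of 0.11 (95% interval −0.16 to 0.38). The edgeR adjusted p of Mnt, Mga, Mxi1, Mxd1 and Mxd3 lay between 0.365 and 0.927. Prelid1 and Gm10197 on the opposite strand cover 4.43% of the exon bases of Mxd3 and 2.84% of those of Mxi1. None of these 5 genes had an interval reaching the 0.98 of Mycn.

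**Figure D2:**
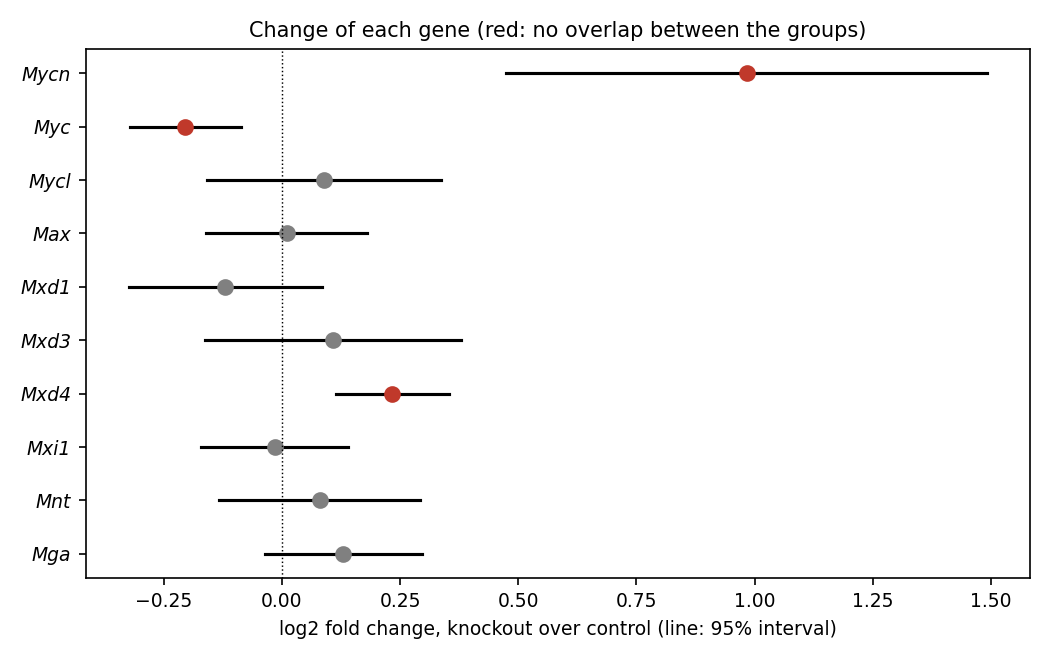
Log2 fold change of each of the 10 genes, knockout over control (horizontal axis), with its 95% interval from the edgeR fit; red points are the genes whose groups did not overlap. The interval of Mycn runs from 0.47 to 1.49, that of Myc from −0.32 to −0.09 and that of Mxd4 from 0.11 to 0.35.

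To set genes beside each other, levels were divided by the length of each gene's merged exons, which gives CPM per kb of exon and does not account for the isoforms in use. On this scale the control order began with Myc at 41.1 ± 0.921 and Mycl at 37.5 ± 5.14, whose libraries overlapped (SD, n = 3 each). Mxd4 followed at 23.6 ± 0.654, then Mxi1 at 17.5 ± 0.603 and Max at 17.2 ± 1.12, which overlapped each other, and Mnt at 14.3 ± 0.759. Mxd3 at 4.69 ± 0.467, Mga at 4.58 ± 0.132 and Mxd1 at 4.49 ± 0.444 overlapped, and Mycn was last at 2.06 ± 0.533 CPM per kb. In the knockout Mycn was still last, at 4.09 ± 0.825 CPM per kb, but its libraries overlapped those of Mxd1 at 4.13 ± 0.0239. Mycl at 39.9 ± 3.17 and Myc at 35.7 ± 0.389 CPM per kb headed the knockout order, with no overlap between them.

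Set against each other as levels, the difference in Mycn was smaller than the opposite difference in Myc. The knockout mean minus the control mean was 2.02 CPM per kb for Mycn, −5.43 for Myc and 2.36 for Mycl. The sum of Mycn and Myc was 39.2 to 40.3 CPM per kb in the knockout and 42.8 to 43.6 in the control, without overlap. The sum of all 3 paralogs was 82.0, 76.6 and 80.5 CPM per kb in the knockout and 85.8, 74.8 and 81.5 in the control. These sums overlapped, with a difference of −1.04 between the means of 79.7 and 80.7 CPM per kb. As a log2 ratio of the means this was −0.0187, and its sign was not stable. The ratio was 0.0078 in CPM not divided by length, 0.0091 without DE685 and 0.0272 without DE680, and negative in the other settings. Within the sum the make-up differed: Mycn held 4.27% to 6.55% of it in the knockout and 1.82% to 3.51% in the control, and Myc 44.0% to 46.1% and 49.0% to 53.7%. The sums and shares are descriptions of genes chosen with earlier results known and carry no test.

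The antagonists together were higher in every knockout library. They summed to 74.9, 75.4 and 72.9 CPM per kb in the knockout and to 69.0, 70.5 and 68.0 in the control, a difference of 5.23 between the means. Mxd4 made 4.16 of that difference, and the sum of the other 5 antagonists overlapped, at 45.1 to 47.4 against 45.0 to 46.5 CPM per kb. Mxd4 held 37.0% to 38.1% of the antagonist sum in the knockout and 33.6% to 34.8% in the control. The ratio of the paralog sum to the antagonist sum was 1.02 to 1.10 in the knockout and 1.06 to 1.24 in the control, so the groups overlapped.

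**Figure D3:**
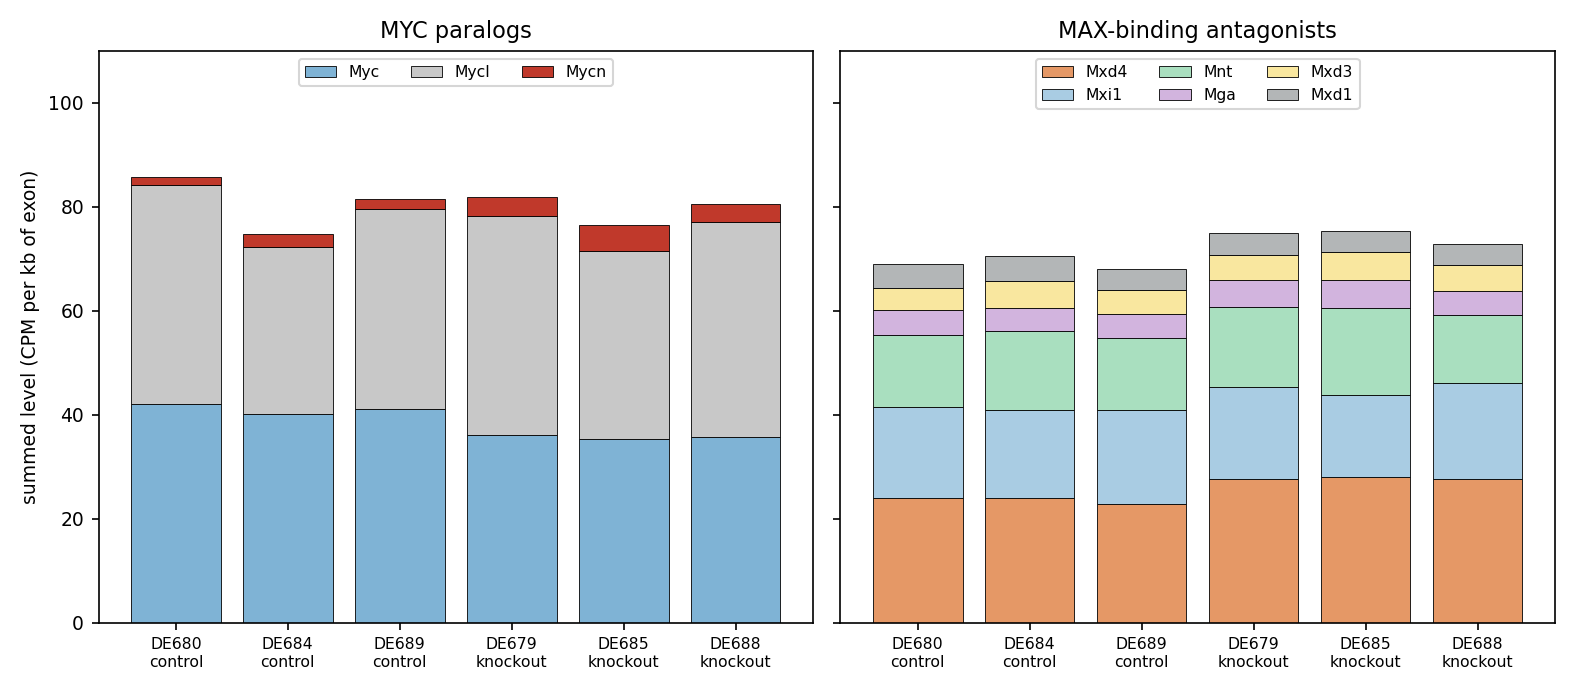
Stacked levels in CPM per kb of exon (vertical axis, from 0) of the MYC paralogs, left, and of the MAX-binding antagonists, right, in each of the 6 libraries. The paralog stacks of both groups lie between 74.8 and 85.8, with a thicker Mycn segment and a thinner Myc segment in the knockout; the antagonist stacks are 72.9 to 75.4 in the knockout and 68.0 to 70.5 in the control.

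Genes that MYC activates in ribosome production and growth were lower in the knockout for 30 of the 35 list genes, with a median log2 fold change of −0.17 against −0.0036 for all genes tested. Of the 35, 1 passed the threshold as lower, where 0.357% of all genes did: Gnl3, which encodes the nucleolar GTP-binding protein nucleostemin. Gnl3 had 58.8, 64.7 and 60.6 CPM in the knockout libraries and 75.7, 79.9 and 82.7 CPM in the control libraries. The groups of Gnl3 did not overlap, and the log2 fold change was −0.37 with an SE of 0.06 (adjusted p 0.0389, edgeR). When any 1 of the 6 libraries was left out, the adjusted p was 0.0682 to 0.160 and missed the threshold. In all, 17 of the 35 genes had no overlap between the groups, all of them lower in the knockout, and 12.8% of all genes were lower without overlap. Of the 35, 16 had an unadjusted p under 0.05, again all lower. Over all 15422 genes tested, 1404 were lower at an unadjusted p under 0.05.

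Other genes of that list are named after their values were seen. Ncl, the nucleolar protein nucleolin, had 741 to 775 CPM in the knockout and 838 to 886 CPM in the control. Ldha, a glycolytic enzyme and long-known MYC target, had 379 to 391 against 428 to 462 CPM, and it passed with DESeq2. Tert, the catalytic subunit of telomerase, had the highest fold change of the list at 0.80 on the log2 scale (adjusted p 0.309, edgeR; SE 0.39), from a low level of 1.73 ± 0.662 against 1.00 ± 0.328 CPM (SD, n = 3 each). The median of the list stayed between −0.17 and −0.15 in every alternative, and 29 to 33 of its 35 genes were lower.

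The genes repressed by MYC through its partner MIZ1 had 4 of 11 tested members higher and 7 lower, with a median of −0.033. None passed the threshold (edgeR). At an unadjusted p under 0.05, 1527 of all 15422 genes tested were higher, as were 2 genes of this list, with 0 lower. These were Ndrg2, a stress and differentiation gene, with 83.2 to 99.9 against 71.2 to 80.9 CPM, and Cdkn1c, which encodes the cell cycle inhibitor p57, with 1.95 to 2.19 against 1.27 to 1.47 CPM. Ndrg2 passed with DESeq2 at an adjusted p of 0.0283. Cdkn2a was not tested because its counts were too low. The proliferation list had 4 of 12 genes higher, a median of −0.034 and 0 past the threshold (edgeR), with 1 at an unadjusted p under 0.05, Pcna, the DNA polymerase clamp, at 109 to 112 against 120 to 123 CPM. Its next lowest p belonged to Rrm2, a subunit of ribonucleotide reductase, with 41.6 to 45.3 against 44.9 to 53.4 CPM.

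No partner or cofactor of the network passed the threshold in the edgeR test. The MLX branch and MAX-complex partners had 0 of 12 genes past the threshold (edgeR), 1 at an unadjusted p under 0.05 and a median of −0.036. That gene was Mlxip, which encodes the glucose-sensing factor MONDOA, with 62.9 to 65.5 CPM in the knockout and 50.1 to 57.2 CPM in the control, and an edgeR adjusted p of 0.154. Mycbp, a MYC-binding protein, had 17.6 ± 1.66 against 20.6 ± 1.86 CPM (SD, n = 3 each). The coactivators recruited by MYC had 0 of 12 genes past the threshold (edgeR), 0 at an unadjusted p under 0.05 and fold changes between −0.099 and 0.09 on the log2 scale; Cdk9, the transcription elongation kinase, and Smarcb1, a chromatin remodelling subunit, marked these ends. DESeq2 and limma-voom called 0 genes in these lists, among the corepressors or in the proliferation list.

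The corepressors recruited by the MXD proteins, MXI1 and MNT had 0 of 11 genes past the threshold (edgeR), 1 at an unadjusted p under 0.05 and a median of −0.029. Sap30, a SIN3 complex subunit, had 9.24 to 10.4 against 10.2 to 11.8 CPM. Genes for turnover of MYC and MYCN protein had 0 of 14 past the threshold (edgeR). Of the 14, 3 had an unadjusted p under 0.05, as did 19% of all genes. Fbxo32, a ubiquitin ligase subunit, was at 44.4 to 51.1 against 30.9 to 40.2 CPM, and Usp7, a deubiquitinase, at 220 to 235 against 258 to 295 CPM. Fbxw7, the ubiquitin ligase subunit that marks MYC and MYCN for degradation and is named after its values were seen, had 39.1 to 47.0 against 50.2 to 54.4 CPM. DESeq2 called Fbxo32 and Usp7, with adjusted p of 0.0130 and 0.0242, and edgeR with the sex term called Fbxo32 at 0.0223. The medians of these lists lay near 0 with all 6 libraries, and some changed sign in the alternatives. Positive medians were found for the MLX branch without DE689 (0.018) and the coactivators with upper-quartile scaling (3e-04). So they were for the corepressors without DE680 (0.0097) and the proliferation list without DE684 (0.034) or DE689 (0.013). Without DE680 the proliferation median was −0.12, with 11 of 12 genes lower.

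**Figure D4:**
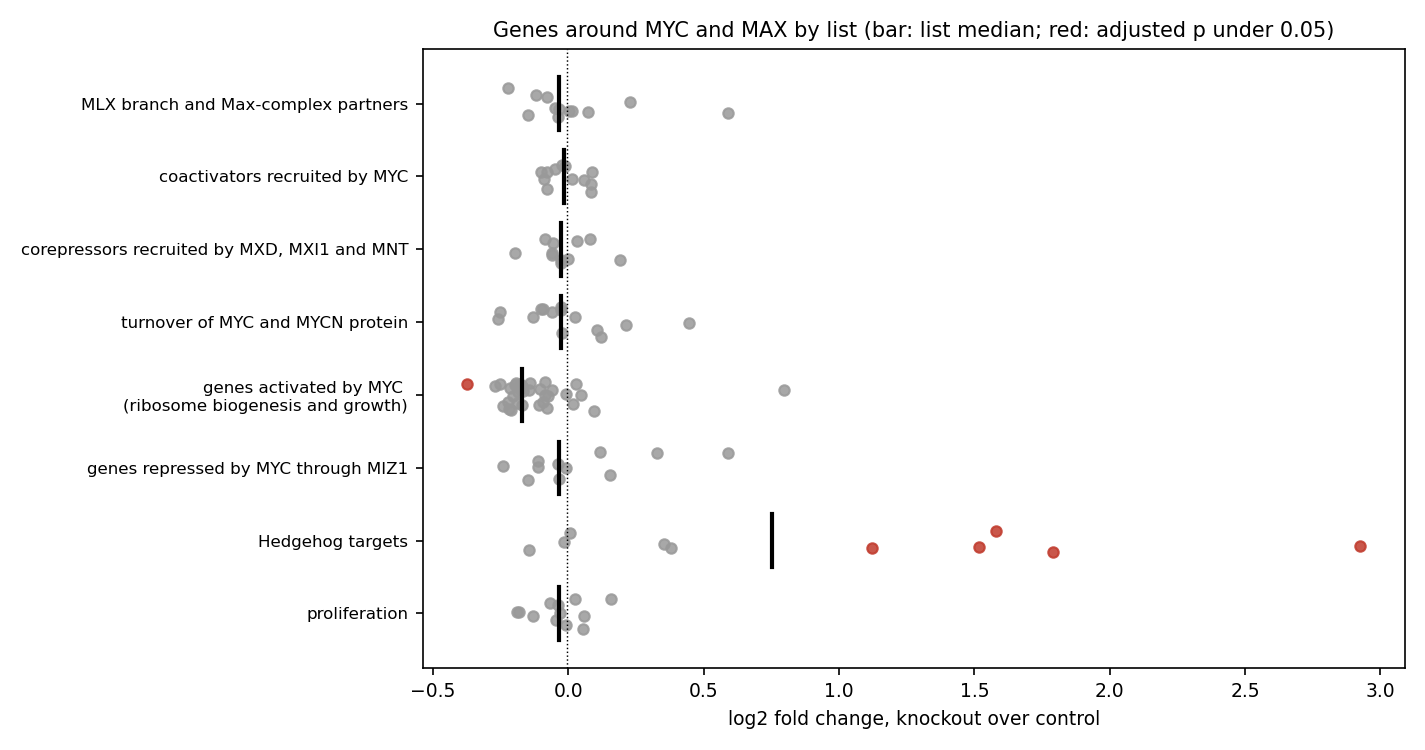
Log2 fold change, knockout over control (horizontal axis), of every tested gene in the 8 lists, 1 point per gene; black bars are list medians, the dotted line is the median of all genes tested, and red points passed an adjusted p of 0.05. The list activated by MYC lies mostly left of the line with a median of −0.17, and the Hedgehog targets lie mostly right of it with a median of 0.75.

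Hedgehog targets were the list with most genes past the threshold. Of 10 listed targets, 5 passed the threshold (edgeR), all higher in the knockout, where 1.24% of all genes passed as higher, and the median log2 fold change was 0.75. The list was chosen with results of these libraries known and is not independent evidence of its direction. Without DE688 the count was 3, and without DE689 the median was 1.31. On the log2 scale Gli1 rose by 2.93 (SE 0.10; adjusted p 1.77e-05, edgeR), Gli2, a transcription factor of the pathway, by 1.79 (adjusted p 0.00259), and the receptor gene Ptch1 by 1.58 (adjusted p 0.00228). The activin inhibitor Fst rose by 1.12 (adjusted p 0.0116, edgeR), a call that was lost without DE688 (1.08, adjusted p 0.0591). The 0.98 of Mycn lay below each of these, as a value with no test of the difference. It lay above the listed targets that did not pass, which ran from −0.15 (Ccnd2) to 0.38 (Bcl2). Among them Hhip had −0.015, with 8.49 to 77.6 CPM in the knockout and 2.06 to 114 CPM in the control. Ccnd2, Bcl2 and Hhip are named after their values were seen. Ccnd1, another growth gene described downstream of Hedgehog signalling and named after its values were seen, had 0.35 (SE 0.13; adjusted p 0.198, edgeR).

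The genes whose pattern was most like that of Mycn were found by Pearson correlation of log2 CPM over the 6 libraries among 13664 genes, as a description of libraries that share their genotype and their Y-linked or Xist transcripts. They were Sspn (sarcospan, r = 0.997), Efnb3 (the guidance ligand ephrin B3, r = 0.996), Slc38a4 (an amino acid transporter, r = 0.989), Txnip (thioredoxin-interacting protein, r = 0.989) and Pald1 (r = 0.988). Slc38a4 had 64.7, 94.1 and 69.3 CPM in the knockout libraries and 23.3, 48.5 and 31.9 CPM in the control libraries. As with Mycn, the highest library of each group was the one with Y-linked transcripts. None of the 5 passed the threshold (adjusted p from 0.0854 to 0.204, edgeR). With DESeq2 and with the sex term Slc38a4 and Txnip did, and Slc38a4 also did in 1 of the 6 fits with a library left out.

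Marker genes of other cells also differed between the libraries. Hair follicle markers (Krt15, Lgr5, Cd34, Sox9, Lhx2) summed to 1919 to 2277 CPM in the knockout and 1496 to 1784 CPM in the control. Of the 5 genes, 4 were higher and 0 passed the threshold (edgeR). Krt15 made most of that sum, at 1689 to 2018 against 1324 to 1600 CPM. Sox9 and Lhx2 also had no overlap between the groups, Lgr5 overlapped, and Cd34 was lower, at −0.29 on the log2 scale, with overlap. Melanocyte markers summed to 74.4 to 110.4 against 51.4 to 73.5 CPM with 5 of 5 higher and 0 past the threshold (edgeR). T cell markers summed to 41.1 to 57.4 against 21.1 to 33.1 CPM with 4 of 4 tested higher, 0 past the threshold (edgeR) and Cd8a not analysed here. Thy1, which other cells also express, carried that sum at 36.6 to 49.3 against 18.8 to 28.6 CPM (adjusted p 0.056), and Cd3e, Cd3g and Trdc, each at most 3.99 CPM, overlapped between the groups (adjusted p from 0.482 to 0.782). Fibroblast markers summed to 129 to 142 against 37.4 to 79.1 CPM, with 2 of 5 tested genes higher. Dcn, at 112 to 123 against 20.8 to 40.6 CPM, carried the difference and was the 1 fibroblast marker past the threshold (adjusted p 0.00782, edgeR), while the collagen genes Col1a1, Col1a2 and Col3a1 had log2 fold changes of −0.38, −0.42 and −0.54 (adjusted p from 0.489 to 0.663). Hair matrix markers overlapped, at 143 to 201 against 159 to 219 CPM, and Merkel cell markers reached 9.53 CPM at most, with 2 of 3 tested genes higher and Atoh1 and Isl1 at most 0.347 CPM. Endothelial markers reached 5.79 CPM at most, and those of smooth muscle and nerve 5.64 CPM. The part of these cells in the levels of Mycn, Myc and Mxd4 was not tested, and in such bulk samples fewer cells of a type cannot be told apart from less RNA per cell.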

How the data were processed

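Polyadenylated RNA of 6 samples in 2 groups of 3 was made into stranded libraries, per the labels' protocols. The authors deposited 2 tables per gene, estimated counts and normalized signal. The submitters' processing notes name bcl2fastq 2.20, cutadapt 1.18, STAR 2.7.0f, Partek and mm10; use of strand in counting and the annotation are not given in the sources used here. The authors' normalized signal equals the deposited estimated count times a constant per library plus 0.001, with constants within 0.298% of those of CPM with TMM scaling. Gene coordinates of the files were the same as those of GENCODE M21 (GRCm38) for all 10 genes.

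Estimated counts were rounded, filtered with filterByExpr and fitted with edgeR 4.0.16 (TMM, glmQLFit, glmQLFTest, genotype as the only term), with Benjamini-Hochberg adjustment over all genes tested. The design had been laid out for counts, and the same test was kept. Standard errors were derived from each F statistic, and 95% intervals from these and the test's degrees of freedom. An exact permutation test of 3 against 3 libraries has 0.1 as its smallest two-sided p and was not used. The labels do not say whether samples came from separate litters or preparations, and p-values measure the spread between these samples. The fit was tested on simulated data.

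Columns carry group names only, so each was assigned to its group. The 10 genes, the 8 gene lists and the cell type markers were chosen with earlier results of these data known. Named beside the 10 genes were Gpr161, Gli1 and Ptch1, up to 4 genes past the threshold from each list or else the 2 of lowest p, and the 5 genes most correlated with Mycn at a mean of at least 1 CPM; log2 of CPM plus 0.5 was used for that. Alternatives were RLE and upper-quartile scaling, DESeq2 1.42.0, no filter or a minimum mean of 1 CPM, limma-voom and limma 3.58.1 with a trend on log2 of the normalized signal plus 1, a sex covariate from Xist and Y-linked counts, and each library left out. The values of some list genes are not reported here.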

Additional observations from a re-analysis of the deposited data

How the results depend on the processing

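Mycn, Myc, Mxd1, Mxd3, Mxd4, Mnt and Mga kept their direction in all 14 alternatives, but Mnt barely so, at 6e-04 without DE685. Mycn passed the threshold with DESeq2 (log2 fold change 0.99, adjusted p 0.00118) and with the sex covariate (0.99, adjusted p 0.0149), and Mxd4 with DESeq2 (0.24, adjusted p 0.00572), so that 2 of the 10 genes passed with DESeq2, 1 with the sex covariate and 0 in every fit that left out 1 library. Mxi1 turned to 0.0031 with upper-quartile scaling. Across the fits that left out 1 library, the fold change of Mycl ran from −0.015 to 0.18, that of Max from −0.037 to 0.057 and that of Mxi1 from −0.058 to 0.039; the cause was not tested. The number of genes past the threshold over the whole table was 247, against 879 with DESeq2 and 409 with the sex covariate, and 69 to 121 with 1 library left out, where fewer libraries lower the number by construction. Of the 247 genes 77.7% were higher in the knockout, and of the 879 64.7%. The share was 79.8% to 96.7% with 1 library left out. The count and median of the genes activated by MYC were recomputed under each alternative after the data had been seen. No paired analysis was possible because the columns carry no replicate numbers. Tags that follow each other belong to 1 library of each genotype, but no label says that these pair mice, and no block was fitted on them. Which control library was homozygous for the floxed allele is not shown by the columns, so each control was left out in turn.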

Other observations

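Txnip and Arrdc4 are the best known targets of MONDOA, the product of Mlxip, and were looked at after the values of Mlxip and Txnip had been seen. Txnip had 353 to 433 CPM in the knockout and 259 to 339 CPM in the control, without overlap, and a fold change of 0.42 on the log2 scale (SE 0.11; adjusted p 0.120, edgeR; adjusted p 0.00774 with DESeq2 as the lowest of the alternatives). Arrdc4 had 48.5 to 53.4 CPM in the knockout and 52.0 to 62.4 CPM in the control, with overlap and a fold change of −0.14 on the log2 scale (SE 0.09; adjusted p 0.417, edgeR).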
